A study of Mus musculus with 8 samples.

Results

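The autophagy machinery was examined in RNA-seq counts of mouse embryos about a day after ZP3 had been targeted for degradation at the pronuclear stage. Genes were taken by name: every symbol beginning with Atg, Gabarap, Map1lc3 or Wipi, together with Ulk1, Ulk2, Becn1, Pik3c3, Pik3r4, Sqstm1, Nbr1, Optn, Rb1cc1, Tax1bp1 and Ambra1. This gave 36 of the 52636 genes in the table, and all 36 symbols equalled the GENCODE M21 name of their identifier. The 3 ZP3 Trim-away libraries came from zygotes injected 15 h post hCG with mCherry-Trim21 mRNA (0.2 mg/mL), a fluorescent dextran tracer (Oregon Green, at 0.02 mg/mL) and an antibody against ZP3 (1 mg/mL). The 4 Trim21 overexpression libraries received the mRNA and the tracer without degradation of ZP3, in antibody buffer per the study's methods, and the single non-manipulated library was not injected. All embryos were wild-type B6C3F1 x CD1 zygotes grown in KSOM medium, and each library was a pool of embryos. The study's results count 4 ZP3 Trim-away and 3 buffer libraries, the reverse of the labels, and the labels were followed. The labels put the ZP3 Trim-away embryos at an earlier stage than both other groups, so the effect of the treatment and the stage of the embryos cannot be told apart.

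Autophagy encloses cytoplasm in a double membrane and delivers it to the lysosome. The ULK kinase complex starts the process, a lipid kinase complex around PIK3C3 and BECN1 marks the membrane, WIPI proteins read that mark, and 2 ubiquitin-like conjugation systems then attach the Atg8 family proteins (LC3 and GABARAP) to the membrane. Cargo receptors such as SQSTM1 bind the Atg8 proteins and the cargo. In the mouse, autophagy is induced soon after fertilization, and embryos without ATG5 from the oocyte and the sperm fail before implantation.

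Total counts ranged from 13228428 to 15379933 in the ZP3 Trim-away libraries and from 17615416 to 22427747 in the Trim21 overexpression libraries, and the non-manipulated library held 22248022. Depth was thus lower in every ZP3 Trim-away library, and 3 counts corresponded to between 0.126 and 0.258 CPM, the usual count level relative to library size, here after TMM scaling of the sizes. The injected Trim21 itself gave 2125, 0 and 3.53 CPM in ZP3 Trim-away replicates 1 to 3, against 959 to 8640 CPM with Trim21 overexpression and no count in the non-manipulated library. ZP3 Trim-away replicates 2 and 3 thus went against their label in this respect, the groups are named by their labels throughout, and the main results are also given without these libraries. Zp3, whose protein and not mRNA is the target, was at 28.3 to 55.6 CPM in the ZP3 Trim-away libraries and 105 to 141 CPM in the Trim21 overexpression libraries. All 14 oocyte and maternal markers were detected, and their summed level was 5870 to 12086 CPM with ZP3 Trim-away, against 2966 to 4282 CPM with Trim21 overexpression. Markers of the 2-cell embryo summed to 2153 to 2842 CPM against 1344 to 2030 CPM, and none of the 13 was called. Of these 13, 11 had a positive and 2 a negative log2 fold change. In each ZP3 Trim-away library 3 of them lay higher, and 0 lower, than in each Trim21 overexpression library. The sum of 5 oviduct epithelium markers was 16.2 to 178 against 279 to 358 CPM, and that of 8 sperm markers 99.1 to 185 against 0.465 to 56.7 CPM. Only 2 of these 5 and 1 of these 8 had enough counts to be tested, and none was called. Both sums may thus rest on few genes. Of 12 cumulus markers 6 had no count in any library, with sums of 14.3 to 66.2 against 18.9 to 47.7 CPM, and blood markers summed to at most 4.11 and 6.22 CPM. The part of depth and of these markers in the results was not tested.

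Among the autophagy genes, 4 passed the test between the injected groups. Map1lc3b, Gabarapl2 and Gabarap, all of the Atg8 family, were lower after ZP3 Trim-away, by 2.15 to 2.71 on the log2 scale, and Atg5 was higher by 1.97. The test was edgeR's quasi-likelihood test on the counts of the 3 and 4 injected libraries, with Benjamini-Hochberg adjustment over 13641 genes and a threshold of 0.05. Of the 36 genes 32 passed the filter on low counts, and Atg4c, Atg4d, Atg9b and Gabarapl1 did not. The test thus called 1 of 32 higher, where it called 2.98% of all tested genes higher, and 3 of 32 (9.38%) lower, where it called 3.91% of all tested genes lower. These small counts do not set the autophagy genes as a whole apart from the other genes. In 8 of the 32 the injected groups did not overlap: 2 lay higher in each ZP3 Trim-away library (6.25%, against 13.1% of all tested genes) and 6 lower (18.8%, against 15.5%). Atg16l2, 1 of the 6, had no count with ZP3 Trim-away and passed the filter through the Trim21 overexpression libraries alone. It had to lie lower, so its place among the 6 supports nothing. The median log2 fold change of the 32 was -0.40, and that of all tested genes was -0.04. In pooled embryos, fewer embryos holding a transcript and less of it in each embryo cannot be told apart.

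**Figure D1:**
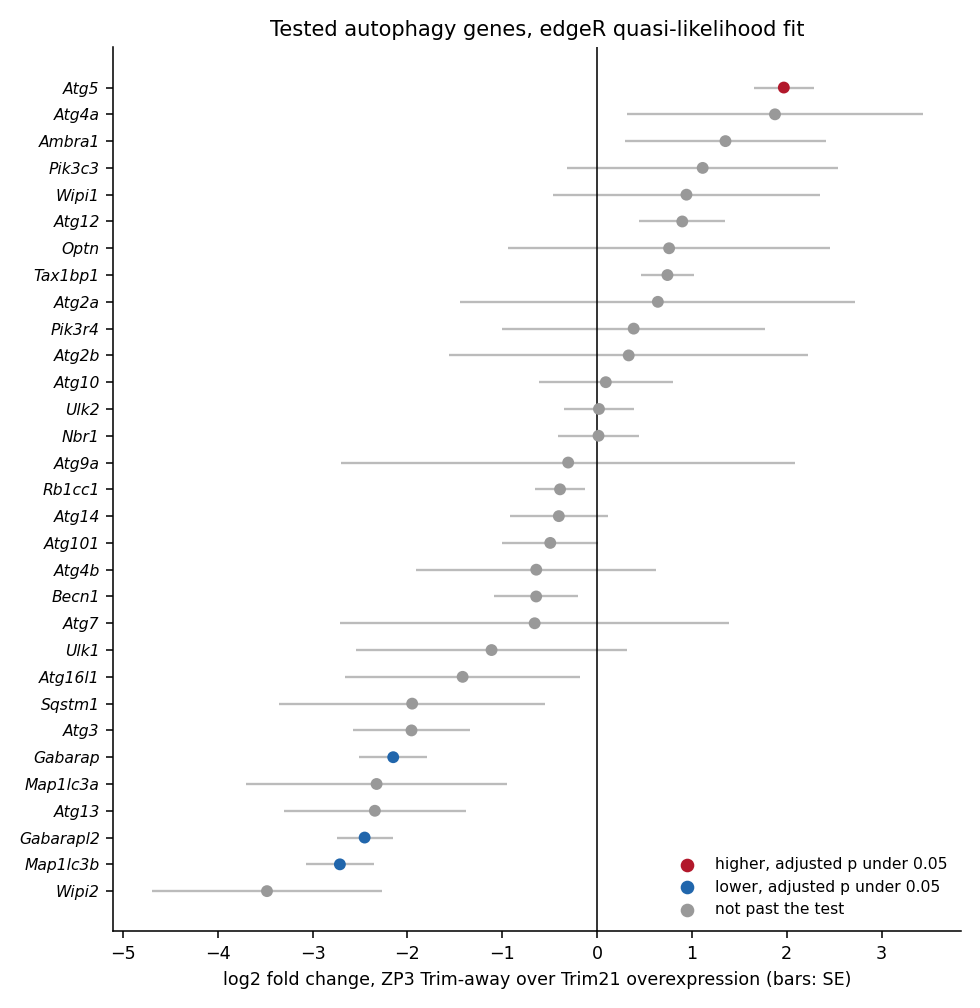
Log2 fold change of the tested autophagy genes, ZP3 Trim-away (n = 3) over Trim21 overexpression (n = 4), with the standard error of the edgeR fit; Atg16l2 had no count with ZP3 Trim-away and is left out. The 3 blue points at -2.71, -2.45 and -2.15 and the red point at 1.97 passed the test, while genes with wide bars had few counts or libraries that differed strongly.

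Map1lc3b encodes LC3B, the Atg8 protein most used to mark autophagosomes. It gave 263, 585 and 548 CPM in ZP3 Trim-away replicates 1 to 3, against 3034, 2699, 2238 and 4256 CPM in Trim21 overexpression replicates 1 to 4 and 2799 CPM in non-manipulated embryos. The highest ZP3 Trim-away library was far below the lowest Trim21 overexpression library, and replicate 1, the one ZP3 Trim-away library with a high level of Trim21 (2125 CPM), was the lowest of all. Replicate 1 also had the fewest total counts of all libraries (13228428) and the highest sum of maternal markers (12086 CPM). A relation of Map1lc3b to the level of Trim21 was not tested. Mean levels were 466 ± 176 CPM over the 3 ZP3 Trim-away libraries and 3057 ± 863 CPM over the 4 Trim21 overexpression libraries (SD), with a log2 fold change (log2FC) of -2.71 (SE 0.35, adjusted p = 0.0060). Map1lc3b lies on chromosome 8 from 121590361 to 121598760 (GRCm38), and 58 of its 7517 exon bases are shared with Zcchc14 on the other strand.

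Map1lc3b has processed pseudogenes, copies of its mRNA inserted elsewhere in the genome, and 5 of them in the table match it at 93.9% to 99.7% identity over at least 300 bases. One of these, Gm5612 on chromosome 9 from 18427543 to 18427917, was itself abundant; the copies were looked at after their values had been seen. Over the 375 aligned bases Gm5612 and the coding sequence of Map1lc3b differ at 13, and the annotated copy holds 125 codons without a stop, as many as precede the stop codon of Map1lc3b. The first 150 bases of both are shown, with the differing bases in capitals, because within this stretch reads can be told apart by such bases alone.
Map1lc3b: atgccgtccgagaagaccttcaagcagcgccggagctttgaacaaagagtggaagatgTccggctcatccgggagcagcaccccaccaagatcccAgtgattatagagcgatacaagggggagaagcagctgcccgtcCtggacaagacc
Gm5612: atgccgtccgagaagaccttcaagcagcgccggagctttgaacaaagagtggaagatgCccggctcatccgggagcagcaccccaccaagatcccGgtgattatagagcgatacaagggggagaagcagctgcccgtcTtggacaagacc
The study's full-length reads are longer than the gaps between the marked bases, so within this stretch only shortened reads could fit both genes equally. How reads were divided between the genes was not tested, so the division of counts between them remains uncertain.

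Gm5612 gave 306, 677 and 617 CPM in the ZP3 Trim-away libraries, against 1294, 1367, 1276 and 1968 CPM with Trim21 overexpression and 1369 CPM in non-manipulated embryos. The groups did not overlap, and its log2FC was -1.47 (SE 0.32, adjusted p = 0.029). Gm5612 missed the threshold without any one of the 7 injected libraries except ZP3 Trim-away replicate 1, with an adjusted p of up to 0.074. The copies together held 55.0%, 55.2% and 53.8% of the counts of Map1lc3b and its copies with ZP3 Trim-away, against 32.0%, 35.8%, 37.9% and 32.9% with Trim21 overexpression and 34.5% in non-manipulated embryos. Map1lc3b thus made up less of the sum in each ZP3 Trim-away library. The sum of gene and copies was 586, 1306 and 1188 CPM against 4459, 4205, 3602 and 6340 CPM, so it was also lower in each ZP3 Trim-away library. This sum does not depend on how the counted reads were divided among gene and copies. Reads that fit several places may have been left uncounted in all of them, and this was not tested. Single libraries were left out for Gm5612 and not for the other copies, of which Gm6055 had a log2FC of -2.82 (SE 0.70, adjusted p = 0.047) and Gm6054 one of -1.85 (SE 0.50, adjusted p = 0.061).

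Gabarapl2 encodes GATE-16, an Atg8 protein of the GABARAP branch that acts late in autophagosome formation. It gave 30.4, 45.3 and 44.6 CPM in ZP3 Trim-away replicates 1 to 3, against 217, 231, 180 and 251 CPM with Trim21 overexpression and 232 CPM in non-manipulated embryos. The groups lay far apart, with a log2FC of -2.45 (SE 0.30, adjusted p = 0.0055). It has 6 processed pseudogenes in the table, at 90.8% to 99.4% identity, but these held at most 6.96% of the summed counts in any library.

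Gabarap, the founding member of that branch, gave 21.6, 41.9 and 49.4 CPM with ZP3 Trim-away, against 180, 144, 175 and 170 CPM with Trim21 overexpression and 202 CPM in non-manipulated embryos. Again the groups did not overlap, and replicate 1 was the lowest of the ZP3 Trim-away libraries (log2FC -2.15, SE 0.36, adjusted p = 0.012). The other 2 members of the family were low or rarely detected. Map1lc3a, which encodes LC3A, gave 4.12, 0.0648 and 12.1 CPM with ZP3 Trim-away, against 44.9, 23.4, 35.4 and 5.72 CPM with Trim21 overexpression and 3.74 CPM in non-manipulated embryos. The groups overlapped (log2FC -2.33, SE 1.38, adjusted p = 0.40). Gabarapl1 had counts in a single library, Trim21 overexpression replicate 2, with 512 counts or 23.8 CPM, and 570 of its 2013 exon bases are shared with a gene on the other strand.

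**Figure D2:**
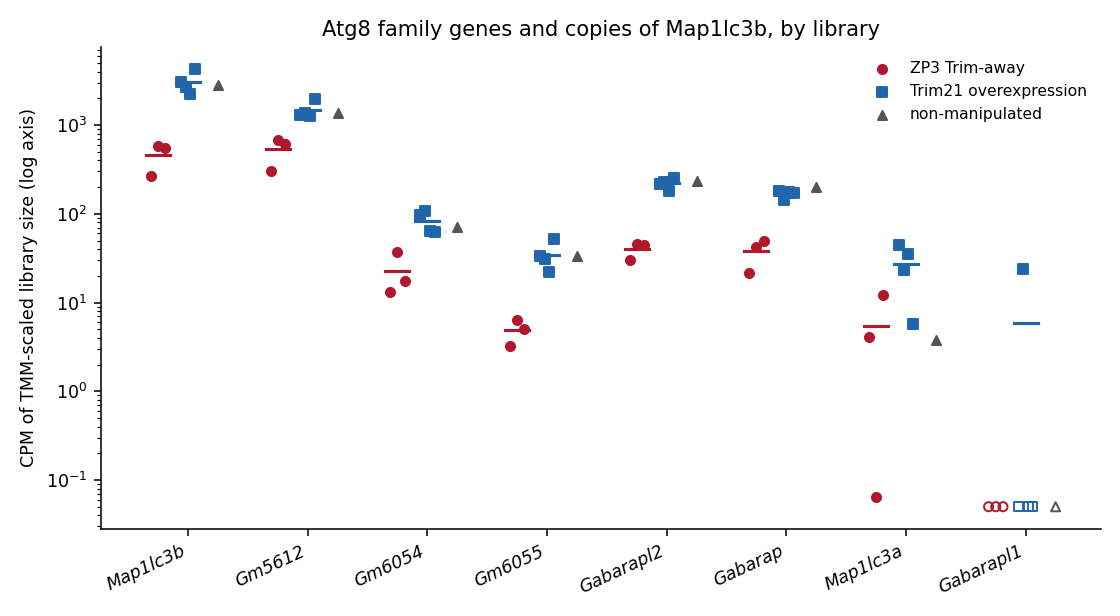
CPM of the Atg8 family genes and of 3 copies of Map1lc3b in each library on a log axis; horizontal bars are means of the 3 ZP3 Trim-away and 4 Trim21 overexpression libraries, the triangle is the non-manipulated library, and open symbols stand for values at or below 0.05 CPM. All ZP3 Trim-away points of Map1lc3b (263 to 585 CPM), Gm5612, Gabarapl2 and Gabarap lie below all Trim21 overexpression points.

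The summed level of the autophagy genes differed mostly in its Atg8 part. The 36 genes summed to 2869, 2755 and 2655 CPM in the ZP3 Trim-away libraries, against 5603, 5010, 4414 and 6544 CPM with Trim21 overexpression and 5219 CPM in non-manipulated embryos. Without the 5 Atg8 genes the sums were 2549, 2084 and 2000 CPM against 2127, 1889, 1785 and 1862 CPM, with 1982 CPM in non-manipulated embryos, and the groups overlapped. Map1lc3b alone took 9.18% to 21.2% of the counts of the 36 genes with ZP3 Trim-away and 50.7% to 65.0% with Trim21 overexpression.

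**Figure D3:**
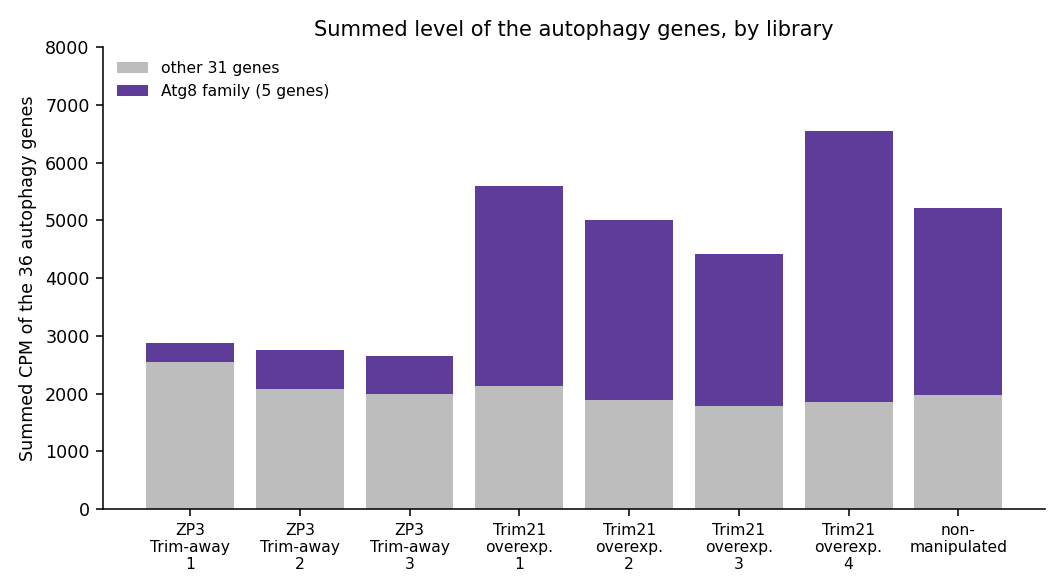
Summed CPM of the 36 autophagy genes in each library, split into the 5 Atg8 family genes and the other 31. The Atg8 part is 320 to 672 CPM in the 3 ZP3 Trim-away libraries and 2629 to 4683 CPM in the 4 Trim21 overexpression libraries, while the rest stays between 1785 and 2549 CPM.

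Atg5, the one autophagy gene that was higher, encodes the acceptor of ATG12; their conjugate, with ATG16L1, places LC3 on the membrane. It gave 788, 440 and 408 CPM in ZP3 Trim-away replicates 1 to 3, against 101, 189, 125 and 143 CPM with Trim21 overexpression and 161 CPM in non-manipulated embryos. Each ZP3 Trim-away library was above each other library, and replicate 1 was the highest. Mean levels were 545 ± 211 CPM over the 3 ZP3 Trim-away libraries and 139 ± 37.2 CPM over the 4 Trim21 overexpression libraries (SD), for a log2FC of 1.97 (SE 0.32, adjusted p = 0.011). Among the maternal markers Bmp15, Nlrp14, Nlrp5 and Zp2, 4 of the 14 on the list, were called higher with ZP3 Trim-away, against 2.98% of all tested genes, and in each of them replicate 1 was the highest library. Of the 14, 12 had a positive and 2 a negative log2FC, 5 lay higher and 2, Zp3 and Oosp1, lower in each ZP3 Trim-away library, and the groups overlapped in the others, among them Gdf9 and Btg4. The part of maternal transcripts in the level of Atg5 was not tested.

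The other genes of the ATG12 system did not pass the test. Atg12 gave 213, 68.9 and 111 CPM with ZP3 Trim-away, against 104, 53.7, 46.3 and 77.2 CPM with Trim21 overexpression, and 130 CPM in non-manipulated embryos (log2FC 0.90, SE 0.45, adjusted p = 0.31). Atg10, the E2 enzyme that joins ATG12 to ATG5, had 29.0, 9.85 and 18.0 CPM against 11.1, 20.2, 16.8 and 23.1 CPM, and Atg7, the E1 enzyme of both systems, reached at most 3.95 and 5.59 CPM. Atg16l1 gave 16.0, 0.194 and 9.56 CPM against 6.00, 35.3, 28.8 and 21.7 CPM. Its paralog Atg16l2 had no count in any ZP3 Trim-away library, against 1.68, 12.4, 1.68 and 1.72 CPM with Trim21 overexpression, and none in non-manipulated embryos. Against 3 counts over the group the Trim21 overexpression mean of Atg16l2 was at least 62.2-fold higher, and at least 24.1-fold higher without replicate 2, the library at 12.4 CPM. These limits cover counting error only (adjusted p = 0.069). Atg16l2 passed the filter on low counts through the Trim21 overexpression libraries alone, so it had to lie lower and this difference supports nothing.

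On the LC3 side, Atg3 is the E2 enzyme that transfers Atg8 proteins to phosphatidylethanolamine. It gave 26.1, 6.35 and 24.97 CPM with ZP3 Trim-away, against 73.9, 75.6, 38.9 and 109 CPM with Trim21 overexpression and 85.5 CPM in non-manipulated embryos. The groups did not overlap, but the test was not passed (log2FC -1.96, SE 0.61, adjusted p = 0.096). The ATG4 proteases, which prime and release Atg8 proteins, were erratic between libraries. Atg4b gave 0.0859, 79.3 and 24.3 CPM against 51.7, 72.7, 70.6 and 20.9 CPM, and Atg4a 32.1, 49.1 and 8.22 CPM against 1.07, 12.8, 18.5 and 0 CPM. Atg4c had over 1.05 CPM in a single library, ZP3 Trim-away replicate 1 (20.5 CPM), and Atg4d was detected with Trim21 overexpression, up to 15.1 CPM, and in non-manipulated embryos, but had no count with ZP3 Trim-away.

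**Figure D4:**
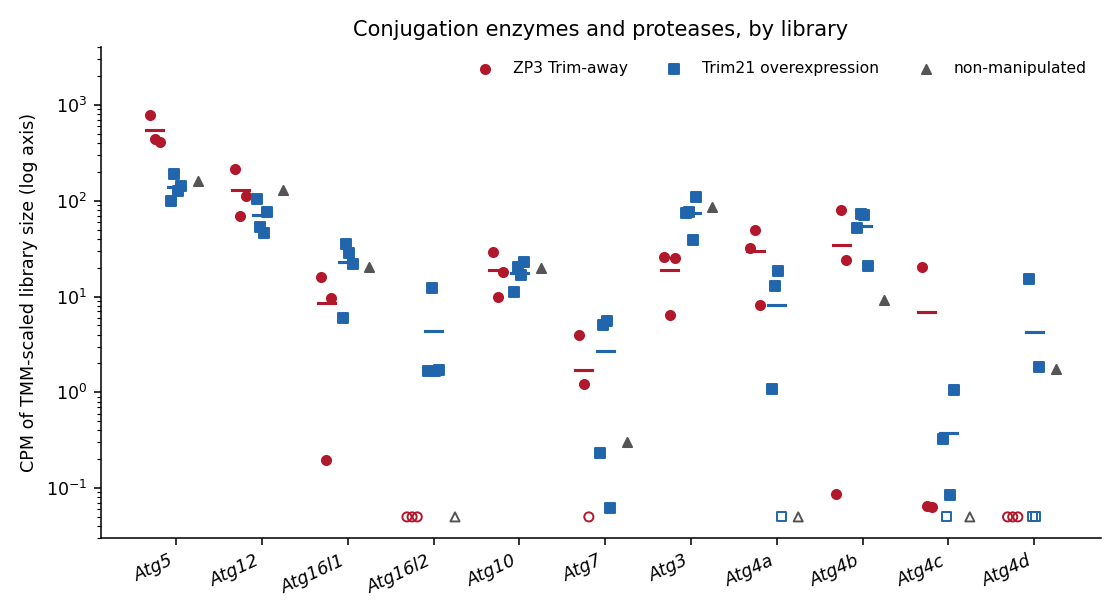
CPM of the conjugation enzymes and ATG4 proteases in each library on a log axis; bars are group means and open symbols stand for values at or below 0.05 CPM. Atg5 is the one gene with all 3 ZP3 Trim-away points (408 to 788 CPM) above all 4 Trim21 overexpression points (101 to 189 CPM), and Atg3 and Atg16l2 have all 3 below.

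Sequences before the RefSeq start sites (GRCm38.p6) were read for genes called in either direction, to show what lies upstream of one that was lower and one that was higher. Capitals mark matches to CACGTG, an E-box, and to GGGCGG, a GC box, on either strand.
Gabarapl2, chr8:111940453-111940702, plus strand: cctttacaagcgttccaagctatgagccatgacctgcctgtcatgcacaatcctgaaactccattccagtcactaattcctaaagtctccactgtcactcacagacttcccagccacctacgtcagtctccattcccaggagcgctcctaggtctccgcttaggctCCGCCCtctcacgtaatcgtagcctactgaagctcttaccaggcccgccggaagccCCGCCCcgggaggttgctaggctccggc
Atg5, chr10:44268089-44268338, plus strand: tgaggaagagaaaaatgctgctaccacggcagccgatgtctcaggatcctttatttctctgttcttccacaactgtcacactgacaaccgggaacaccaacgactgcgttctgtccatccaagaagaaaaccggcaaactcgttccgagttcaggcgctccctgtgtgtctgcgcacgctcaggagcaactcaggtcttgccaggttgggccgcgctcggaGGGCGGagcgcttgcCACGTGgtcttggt
The E-box of Atg5 begins 14 bases before the start. E-boxes stood in the 250 bases before the start of 3 of the 30 autophagy genes with a window, Atg3, Atg5 and Atg7, against 6.86% of all 27025 genes with one. GC boxes stood before 18 of the 30, including Map1lc3b and Gabarapl2 and not Gabarap, against 35.4% of all genes. These matches are descriptions of the letters and not of binding.

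In the ULK complex none of the 5 genes passed the test. Rb1cc1, which encodes the scaffold FIP200, gave 386, 446 and 550 CPM with ZP3 Trim-away, against 698, 649, 387 and 686 CPM with Trim21 overexpression and 546 CPM in non-manipulated embryos (log2FC -0.39, SE 0.26, adjusted p = 0.47). Atg13, the adaptor that holds the kinase on the scaffold, gave 1.63, 7.91 and 23.8 CPM against 85.0, 14.8, 78.6 and 48.0 CPM. One library of each group overlapped (log2FC -2.34, SE 0.96, adjusted p = 0.20). The kinase gene Ulk2 averaged 57.1 ± 11.7 CPM (SD, n = 3) with ZP3 Trim-away and 56.4 ± 8.88 CPM (SD, n = 4) with Trim21 overexpression (log2FC 0.02, SE 0.37). Ulk1, a kinase gene of the same role, was scarce and scattered, at 0.193 to 17.3 CPM against 1.349 to 30.3 CPM. Atg101, which stabilizes ATG13, gave 44.9, 197 and 99.2 CPM against 154, 144, 246 and 95.7 CPM (log2FC -0.49, SE 0.51, adjusted p = 0.67).

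In the lipid kinase complex likewise none of 5 genes passed. Becn1, its regulatory subunit, gave 90.6, 79.7 and 26.6 CPM with ZP3 Trim-away, against 87.8, 86.9, 124 and 112 CPM with Trim21 overexpression and 85.1 CPM in non-manipulated embryos (log2FC -0.64, SE 0.44, adjusted p = 0.49). Of its 7065 exon bases 3104 are shared with Cntd1 on the other strand, so its counts are uncertain. Pik3c3, the catalytic subunit, gave 16.3, 42.8 and 29.5 CPM against 29.9, 0, 7.65 and 17.1 CPM (log2FC 1.11, SE 1.43, adjusted p = 0.75). Atg14, which directs the complex to autophagy, gave 25.02 to 54.8 CPM against 27.1 to 79.7 CPM, Pik3r4, its pseudokinase subunit, 8.04 to 26.6 CPM against 0.140 to 31.3 CPM, and Ambra1, which binds BECN1, 12.7 to 27.0 CPM against 1.12 to 17.3 CPM.

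Wipi2 encodes the reader of the lipid mark that recruits ATG16L1. It gave 0.258, 0.843 and 9.24 CPM with ZP3 Trim-away, against 55.1, 24.99, 45.8 and 29.1 CPM with Trim21 overexpression and 49.4 CPM in non-manipulated embryos. The groups did not overlap, but the ZP3 Trim-away libraries differed strongly among themselves (log2FC -3.48, SE 1.21, adjusted p = 0.13). Without ZP3 Trim-away replicate 3, the highest of them, Wipi2 passed the test with a log2FC of -6.10 (adjusted p = 0.028). Leaving out the treated library nearest the other group widens the gap by itself, so this pass supports nothing. Without any other single injected library Wipi2 was not called, with an adjusted p of up to 0.28. Its paralog Wipi1 gave 2.32, 25.02 and 9.50 CPM against 16.8, 0.186, 4.62 and 3.94 CPM. The lipid transfer genes Atg2a and Atg2b and the scramblase genes Atg9a and Atg9b were low or erratic, with values from 0 to 26.7 CPM over the injected libraries.

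Among the cargo receptors none of 4 passed. Tax1bp1, a receptor of ubiquitinated cargo, gave 618, 424 and 410 CPM with ZP3 Trim-away, against 389, 197, 301 and 272 CPM with Trim21 overexpression and 382 CPM in non-manipulated embryos. Each ZP3 Trim-away library was above each Trim21 overexpression library, by a small margin (log2FC 0.74, SE 0.28, adjusted p = 0.16). Sqstm1, which encodes p62, gave 0.344, 3.05 and 7.25 CPM against 12.0, 32.0, 1.39 and 9.79 CPM, and 26.7 CPM in non-manipulated embryos (log2FC -1.95, SE 1.41, adjusted p = 0.51). Nbr1, its relative, averaged 73.2 ± 30.3 CPM with ZP3 Trim-away (SD, n = 3) and 72.6 ± 27.0 CPM with Trim21 overexpression (SD, n = 4). Optn, a receptor in the clearance of mitochondria and bacteria, ranged from 0.172 to 20.03 CPM and from 0.419 to 10.1 CPM.

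Levels of different genes were compared per kilobase of exon, as CPM divided by the exon length in GENCODE M21. This length joins all annotated exons of a gene, 7517 bases for Map1lc3b, 1597 for Atg101 and 2352 for Atg5. Counts given to the copies of Map1lc3b are not included, and the order of the genes may depend on both choices. With ZP3 Trim-away Atg5 stood highest, at 232 ± 89.6 CPM per kilobase (SD, n = 3), followed by Atg101 at 71.1 ± 48.1, Map1lc3b at 61.9 ± 23.4 and Tax1bp1 at 48.4 ± 11.7, and the last 3 lay within each other's spread. With Trim21 overexpression Map1lc3b stood highest, at 407 ± 115 CPM per kilobase (SD, n = 4), followed by Atg101 at 100.2 ± 39.4, Gabarapl2 at 94.5 ± 12.9, Gabarap at 90.7 ± 8.81 and Atg5 at 59.3 ± 15.8. Atg101, Gabarapl2 and Gabarap did not differ beyond their spread. The non-manipulated library had the same gene at the top, Map1lc3b at 372 CPM per kilobase, with Atg101 at 114 and Gabarap at 110. For the tested autophagy genes this library lay within the range of the Trim21 overexpression libraries in 22 of 32, and over all tested genes it lay outside that range in 37.7%.

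The genes around the core machinery were read from 5 lists of the pathway. Of 94 tested genes 3 (3.19%) were called higher and 6 (6.38%) lower, against 2.98% and 3.91% of all tested genes, so the share called higher was near that of all genes. The counts of the single lists are too small to be read against these shares. In the list of partners in initiation and nucleation 1 of 14 was higher and 2 lower. Vmp1, an endoplasmic reticulum scramblase needed to form autophagosomes, gave 133, 88.8 and 93.8 CPM with ZP3 Trim-away, against 653, 487, 506 and 630 CPM with Trim21 overexpression and 718 CPM in non-manipulated embryos. This was a clear gap between the groups (log2FC -2.44, SE 0.26, adjusted p = 0.0042). Tmem41b, the scramblase that works with VMP1, gave 400, 483 and 430 CPM against 892, 853, 872 and 978 CPM (log2FC -1.04, SE 0.19, adjusted p = 0.015), and missed the threshold without ZP3 Trim-away replicate 3 (adjusted p = 0.052). Rubcnl, which encodes Pacer and promotes autophagosome maturation, gave 5.24, 9.79 and 2.57 CPM with ZP3 Trim-away and had no count with Trim21 overexpression or in non-manipulated embryos. Its ZP3 Trim-away mean was at least 162-fold higher than 3 counts over the Trim21 overexpression group and at least 108-fold higher without replicate 2. Rubcnl passed the filter on low counts through the ZP3 Trim-away libraries alone, so it had to differ and its call (adjusted p = 0.047) supports nothing. The call was lost without any one injected library (adjusted p up to 0.14). Wdr45b and Wdr45, relatives of the WIPI genes, had the next smallest p values, with 1.37, 51.2 and 22.5 CPM against 256, 197, 182 and 91.9 CPM for Wdr45b (adjusted p = 0.11) and 3.27, 14.7 and 9.56 CPM against 52.9, 39.5, 41.8 and 25.6 CPM for Wdr45 (adjusted p = 0.11).

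Of 16 tested cargo receptors outside the name rule 1 was lower and none higher. Bnip3, a receptor of mitochondria, gave 25.3, 20.1 and 39.0 CPM with ZP3 Trim-away, against 187, 233, 173 and 267 CPM with Trim21 overexpression and 179 CPM in non-manipulated embryos (log2FC -2.93, SE 0.36, adjusted p = 0.0055). Ncoa4, the receptor of ferritin, gave 100.3, 78.6 and 50.8 CPM against 27.5, 18.8, 12.6 and 3.20 CPM and was not called (adjusted p = 0.081). Of 11 fusion genes 1 was higher. Rab7, the GTPase of late endosomes, gave 1059, 546 and 636 CPM with ZP3 Trim-away, against 169, 308, 192 and 162 CPM with Trim21 overexpression and 327 CPM in non-manipulated embryos (log2FC 1.85, SE 0.32, adjusted p = 0.014). Vamp8, a fusion SNARE, gave 21.7, 7.46 and 10.4 CPM against 63.5, 39.0, 56.4 and 50.2 CPM (adjusted p = 0.070), and Vps41 followed (adjusted p = 0.16). Vmp1, Tmem41b, Bnip3, Rab7, Cd63 and Atp6ap2 each have a pseudogene copy in the table at over 90% identity, so a part of their counts may be divided with it.

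Of 28 tested lysosomal genes 3 were lower and none higher, 22 had a negative and 6 a positive log2FC, and their median was -1.35. Over all tested genes 3.91% were called lower, 6955 had a negative and 6686 a positive log2FC, and the median was -0.04. Nothing particular to the lysosome was tested. Lamp2, a membrane protein of the lysosome, gave 47.7, 29.3 and 51.2 CPM with ZP3 Trim-away, against 274, 235, 242 and 226 CPM with Trim21 overexpression and 273 CPM in non-manipulated embryos (log2FC -2.51, SE 0.30, adjusted p = 0.0054). Cd63, a tetraspanin of late endosomes, gave 17.4, 113 and 76.7 CPM against 812, 738, 532 and 527 CPM (log2FC -3.24, SE 0.58, adjusted p = 0.015), and missed the threshold without ZP3 Trim-away replicate 3 (adjusted p = 0.054). Atp6ap2, an accessory subunit of the proton pump, gave 24.7, 42.7 and 28.7 CPM against 117, 76.0, 87.1 and 113 CPM (log2FC -1.62, SE 0.38, adjusted p = 0.039), a call that was lost without any one injected library (adjusted p up to 0.11). Npc2 and Ctsl came next, with adjusted p = 0.055 and 0.070. Tfeb, a transcription factor of lysosomal and autophagy genes, reached at most 0.385 CPM with ZP3 Trim-away and 0.554 CPM with Trim21 overexpression, near the limit of detection. Of 25 tested upstream regulators 1 was higher. Deptor, an inhibitor of mTOR, gave 719, 569 and 713 CPM with ZP3 Trim-away, against 209, 239, 219 and 123 CPM with Trim21 overexpression and 235 CPM in non-manipulated embryos (log2FC 1.76, SE 0.27, adjusted p = 0.0091). Rraga and Rptor had the next smallest p values (adjusted p = 0.068 and 0.086). Rptor had 2 counts in all ZP3 Trim-away libraries together, against 497 with Trim21 overexpression. This is a ratio of 0.0078 with an exact 95% interval of 0.00095 to 0.028 that covers counting error only. Rptor passed the filter on low counts through the Trim21 overexpression libraries alone, so this difference supports nothing.

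**Figure D5:**
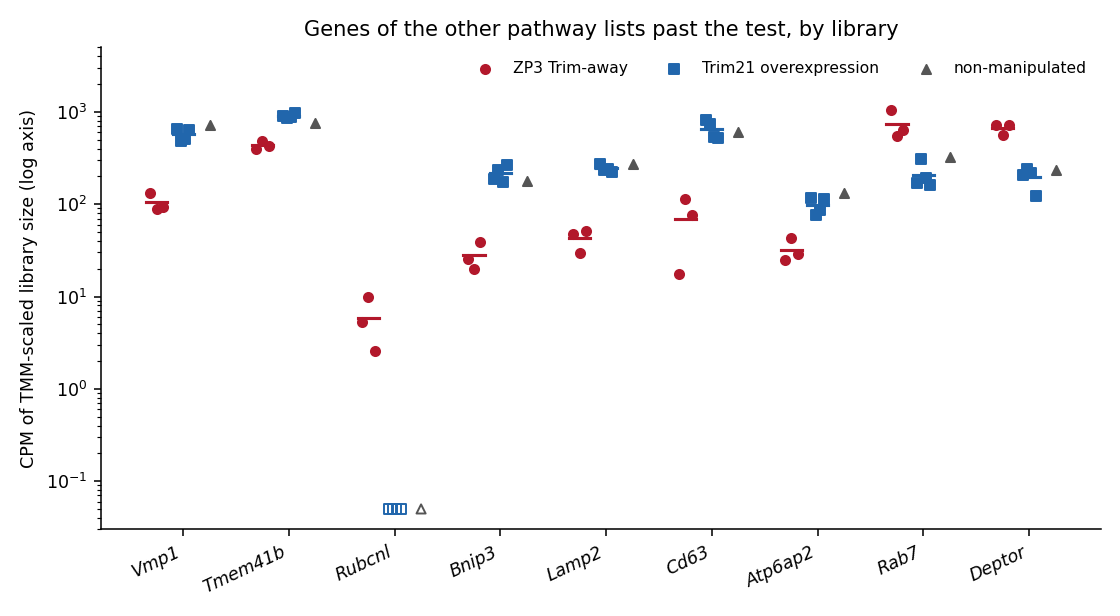
CPM of the 9 genes from the other pathway lists that passed the test, in each library on a log axis; bars are group means, and open symbols stand for values at or below 0.05 CPM. Vmp1, Tmem41b, Bnip3, Lamp2, Cd63 and Atp6ap2 lie lower and Rubcnl, Rab7 and Deptor higher in all 3 ZP3 Trim-away libraries than in all 4 Trim21 overexpression libraries.

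The 4 called autophagy genes were examined for the libraries that stood apart. Without any one of the 7 injected libraries all 4 stayed past the test with their direction, with a largest adjusted p of 0.048 for Gabarap, 0.035 for Atg5, 0.024 for Map1lc3b and 0.023 for Gabarapl2. ZP3 Trim-away replicate 1 was also taken as the only treated library, so without both libraries low in Trim21. The log2FC values were then -3.56 for Map1lc3b, -2.98 for Gabarap, -2.88 for Gabarapl2 and 2.47 for Atg5. Replicate 1 was the lowest ZP3 Trim-away library for Map1lc3b, Gabarap and Gabarapl2 and the highest for Atg5. The larger size of these differences was thus fixed in advance and supports nothing. That fit assumes that the single ZP3 Trim-away library varies as the Trim21 overexpression libraries do, and it shifted the median of the tested genes by -0.50. Relative to that shift all 4 differences kept their sign and a size above 1.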

How the data were processed

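RNA-seq of 8 mouse embryo libraries was analysed. Reads were trimmed with Trimmomatic, aligned to GRCm38 with HISAT2, handled with SAMtools and checked with FastQC 0.11.9 per the submitters' processing notes, and counted per Ensembl gene with htseq-count per the study's methods, with a strand setting that is not stated in those sources. The deposited counts, whole reads per gene, were used as the authors gave them. The gene width beside them spans introns (median ratio to summed exon length 4.17) and served only to rebuild RPKM for alternatives. The deposited RPKM columns, which the authors computed from these counts and widths, were not read.

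Library sizes were scaled by TMM over the 8 libraries. The 3 ZP3 Trim-away and 4 Trim21 overexpression libraries were compared with edgeR 4.0.16 (filterByExpr, quasi-likelihood test, R 4.3.3); limma 3.58.1 and DESeq2 1.42.0 served as alternatives, and the fits were tested on simulated data. The common biological coefficient of variation was 1.16. The study tested RPKM values; counts were tested here because the table holds them. The labels do not say whether libraries came from separate collections, so p-values measure the spread between these libraries, which may be technical. The autophagy genes and lists were chosen with earlier results of these data known. All 36 genes are accounted for; values by library are given for those past the test, those whose groups do not overlap and those that stand for a step, and, from other lists, for those past the test and up to 2 more with the smallest p, of which 1 is not reported here. Copies were sought with blastn 2.17.0 among GENCODE M21 pseudogene transcripts (at least 90% identity over 300 bases). Promoter sequences are from RefSeq; 30 of the 36 genes matched, and windows that reach past GENCODE's start were not printed. Alternatives were other scalings, tests, filters and pseudocounts (0.1 and 1 RPKM), a fold above 2, the non-manipulated library in the fit, a replicate block and leaving out libraries. Limits of 3 counts cover counting error only. Tables and figures were made in Python 3.11.15 with pandas 2.3.3, numpy 2.4.6, Biopython 1.88, matplotlib 3.10.9 and scipy 1.17.1.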

Additional observations from a re-analysis of the deposited data

Results flagged for a closer look

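In 7 of the 36 autophagy genes 1 Trim21 overexpression library stood far from the other 3, by Dixon's criterion on the CPM. Chance alone marks about 1 in 20 groups if values are normally spread, which these CPM need not be. The share marked among all genes was not computed, so the 7 are not to be read as an excess. Trim21 overexpression replicate 1 was high for Atg2a (6.23 CPM, the others at most 0.698), Atg4d (15.1 CPM, the others at most 1.85) and Atg9a (10.5 CPM, the others at most 0.698). Replicate 2 was high for Atg16l2 (12.4 CPM, the others at most 1.72), Gabarapl1 (23.8 CPM, the others at 0) and Atg9b (0.0465 CPM, the others at 0). For Gabarapl1 and Atg9b, where the other libraries had no count, the criterion is met by any count at all, and that of Atg9b is 1 read, so these 2 are not to be read against the chance share. Replicate 3 was low for Rb1cc1 (387 CPM, the others at least 649). The called genes were not among them, and the groups of 3 ZP3 Trim-away libraries are too small for this criterion.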

How the results depend on the processing

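Among the autophagy genes 1 was called higher and 3 lower. The count of those lower was 6 with DESeq2, 5 with limma on log2(RPKM + 1) and 5 without both ZP3 Trim-away libraries low in Trim21, and Wipi2, Atg3, Atg4b and Atg4d were among those added. For the 5 other lists, 3 were higher and 6 lower; DESeq2 called 6 higher and 18 lower, limma on log2(RPKM + 0.1) called 12 and on log2(RPKM + 1) 15 lower, and 13 were lower without both libraries low in Trim21. With the replicate number as a block, 0 autophagy genes were called higher and 0 lower, and 0 and 0 in the other lists. That block called 0 of all tested genes, though 2050 had an unadjusted p under 0.05, 6 of them autophagy genes. Deviations of same-numbered libraries were hardly correlated (-0.08, 0.0048 and -0.0095), which does not settle whether the libraries were paired. The block also left few libraries to estimate the spread, with Trim21 overexpression replicate 4 alone in its block. Leaving aside the fit with 1 treated library, the 4 called autophagy genes passed under every alternative run but the block. With the block, adjusted p was 0.10 for Map1lc3b and Gabarapl2, 0.12 for Gabarap and 0.13 for Atg5. Ulk2, near 0, changed sign with the block (-0.032), limma-voom (-0.014), limma on log2(RPKM + 0.1) (-0.041) and log2(RPKM + 1) (-0.019), and lay between -0.076 and 0.19 when single libraries were left out. Of all tested genes 407 were higher and 534 lower, against 1275 and 1636 with DESeq2, 723 and 689 with limma-voom, 394 and 913 with limma on log2(RPKM + 0.1), which moved the median by -0.11, 451 and 953 on log2(RPKM + 1), 292 and 935 without both libraries low in Trim21, and 408 to 694 in all when single libraries were left out. Genes near the limit of 3 counts were too shallow for differences to be seen.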
